A study of Homo sapiens with 4 samples.

Results

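Treatment of MG cells with 5-azacytidine was read from 2 of the 4 arrays of the series, one array of treated cells and one of vehicle-treated cells. MG cells are a migratory subpopulation of HCT116, a human colorectal carcinoma line, that had been selected by repeated passage through the membrane of a transwell chamber, and non-MG cells are the cells that stayed above it. Both kinds of cell received 5-azacytidine at 5 µM or vehicle, the control arm, for 48 h, and total RNA was hybridized to one-colour whole-genome arrays. No other allele, clone or agent distinguished the 4 samples, and a transwell-selected subpopulation of one line is the limit of this model. The 2 MG arrays carry the response described here, and the 2 non-MG arrays, which share no array with them, are set beside it. With 1 array a condition there was no spread between cultures to test against, so no p-value is given and every difference is a difference between these arrays. Vehicle and treated arrays also lay in different columns of the slide, so position and treatment cannot be told apart.

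5-Azacytidine is a cytidine analogue. Cells phosphorylate it and build it into RNA and, after reduction to the deoxy form, into DNA, where it traps DNA methyltransferases, so that CG methylation is lost over rounds of replication. Genes known to be held silent by promoter methylation, among them germline genes of the X chromosome that tumours can express (cancer-testis antigens), are classical targets, and derepressed endogenous retroviruses can lead to an interferon response. The comparison asks which genes of the migratory cells came up or went down under the drug, and separates genes that went from background to a detected signal from genes that were already expressed.

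A probe was taken as detected where the scanner software called its spot well above background. Of 40909 genes and unnamed transcripts on the array, 18072 were detected on at least one MG array. A gene detected only with 5-azacytidine is called switched on, and a gene detected only with vehicle is called switched off. Its signal on the dark array is only an upper limit, so its change is given as at least N-fold, against the lowest signal of any detected probe on that array or the probe's own signal where that was higher. Genes detected on both arrays are compared by the log2 ratio of treated over vehicle after each array was scaled to its 75th percentile, and are called raised or lowered past 1.5-fold. The ± beside a log2 ratio is the error expected from spot to spot, which covers spotting and scanning and not cultures or labelling. On the MG arrays 21687 probes were detected with vehicle and 21382 with 5-azacytidine, the lowest detected signals were 11.47 and 11.82 intensity units, and no spot was saturated. Signals below are background-corrected intensities before scaling. The 75th percentiles of the MG arrays were close, at 98.7 and 96.4, whereas those of the non-MG arrays were 87.0 and 75.2.

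The promoters of the genes with a symbol and the largest upward changes are shown first, since the drug acts at CG sites. For the 3 genes with a symbol that were switched on furthest and for TBP, a general transcription factor gene within 1.5-fold here, capitals mark CG dinucleotides. For CXCL2 and CXCL1, the most strongly raised expressed genes with a symbol, capitals mark matches of the NF-kB consensus. Each window is taken from RefSeq (GRCh38.p14), runs from 250 bases before to 50 after an annotated start, and is written 5′ to 3′ on the gene's strand. TKTL1 (plus strand, chrX:154295545-154295844) and XAGE1A (plus strand, chrX:52495627-52495926) each have 2 annotated windows, of which the first listed is shown. UCHL1 (plus strand, chr4:41256678-41256977), CXCL2 (minus strand, chr4:74099146-74099445), CXCL1 (plus strand, chr4:73869143-73869442) and TBP (plus strand, chr6:170554119-170554418) have 1.
TKTL1: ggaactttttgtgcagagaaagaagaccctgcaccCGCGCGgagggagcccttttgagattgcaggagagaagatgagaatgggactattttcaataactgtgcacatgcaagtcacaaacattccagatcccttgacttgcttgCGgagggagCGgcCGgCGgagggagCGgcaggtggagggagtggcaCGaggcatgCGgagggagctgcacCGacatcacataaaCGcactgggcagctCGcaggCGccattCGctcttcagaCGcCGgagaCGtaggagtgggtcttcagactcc
XAGE1A: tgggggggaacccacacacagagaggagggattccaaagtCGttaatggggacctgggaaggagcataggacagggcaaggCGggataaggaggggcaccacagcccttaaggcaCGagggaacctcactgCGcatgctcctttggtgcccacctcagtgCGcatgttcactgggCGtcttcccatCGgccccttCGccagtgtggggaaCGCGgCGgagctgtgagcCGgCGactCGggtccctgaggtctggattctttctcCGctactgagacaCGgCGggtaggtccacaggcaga
UCHL1: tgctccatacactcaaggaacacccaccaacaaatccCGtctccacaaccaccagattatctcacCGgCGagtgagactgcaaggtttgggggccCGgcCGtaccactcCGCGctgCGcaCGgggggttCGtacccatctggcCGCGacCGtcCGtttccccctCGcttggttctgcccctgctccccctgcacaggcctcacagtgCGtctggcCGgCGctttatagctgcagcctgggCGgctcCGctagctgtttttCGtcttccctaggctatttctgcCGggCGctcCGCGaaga
TBP: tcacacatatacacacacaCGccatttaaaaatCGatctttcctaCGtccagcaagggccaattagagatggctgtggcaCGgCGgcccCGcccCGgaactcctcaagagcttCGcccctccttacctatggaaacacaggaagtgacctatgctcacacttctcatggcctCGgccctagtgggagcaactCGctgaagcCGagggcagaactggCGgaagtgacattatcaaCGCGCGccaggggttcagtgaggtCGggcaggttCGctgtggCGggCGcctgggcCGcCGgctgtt
CXCL2: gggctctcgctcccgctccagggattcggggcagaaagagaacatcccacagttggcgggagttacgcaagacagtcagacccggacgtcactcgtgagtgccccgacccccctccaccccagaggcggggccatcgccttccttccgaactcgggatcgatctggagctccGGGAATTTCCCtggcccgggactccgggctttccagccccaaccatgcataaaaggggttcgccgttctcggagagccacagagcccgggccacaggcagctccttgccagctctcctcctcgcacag
CXCL1: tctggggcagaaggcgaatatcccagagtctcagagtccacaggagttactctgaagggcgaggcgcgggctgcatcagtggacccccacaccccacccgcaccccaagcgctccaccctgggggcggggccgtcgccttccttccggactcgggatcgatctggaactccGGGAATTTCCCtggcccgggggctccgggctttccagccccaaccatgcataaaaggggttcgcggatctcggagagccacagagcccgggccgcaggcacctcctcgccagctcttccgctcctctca
CG dinucleotides numbered 18 in the TKTL1 window, 17 in XAGE1A, 25 in UCHL1, 21 in TBP and 22 in each of the chemokine windows, against a median of 14 over the 35116 windows of the table. The count for TBP, which was expressed throughout, lay between those of XAGE1A and UCHL1, which were silent with vehicle. The NF-kB consensus matched on both strands of a stretch of 11 bases, which begins 78 bases before the start of CXCL2 and 79 before that of CXCL1. A match on either strand occurs in 11.3% of all windows, and it describes letters only. CG content was not compared between classes of genes, because between 64.6% and 79.3% of the genes of a class had a window in the table, below the 80% set for such a comparison. Which transcription start the MG cells used, and its methylation, were not measured.

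Counted over every class, about as many genes and transcripts came up as went down, and the largest changes were mostly upward. Among 16083 genes and transcripts detected on both MG arrays, 529 were raised (3.29%) and 347 were lowered (2.16%). Of 23743 not detected with vehicle, 906 were switched on (3.82%), and 283 of these by at least 2-fold (1.19%). Of 17166 detected with vehicle, 1075 were switched off (6.26%), but only 169 by at least 2-fold (0.985%). The balance turned with the size of the change, with more genes off than on when every crossing of the detection limit is counted and more on than off at 2-fold, where 283 stand against 169, and at 8-fold, where 41 stand against 12. Among expressed genes the same asymmetry grew with size, with 165 raised and 33 lowered past 2-fold and 33 raised and 2 lowered past 4-fold. Raised genes were dim. Their median signal with vehicle was 28.8, compared with 50.6 for lowered genes and 197 for genes within 1.5-fold.

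**Figure D1:**
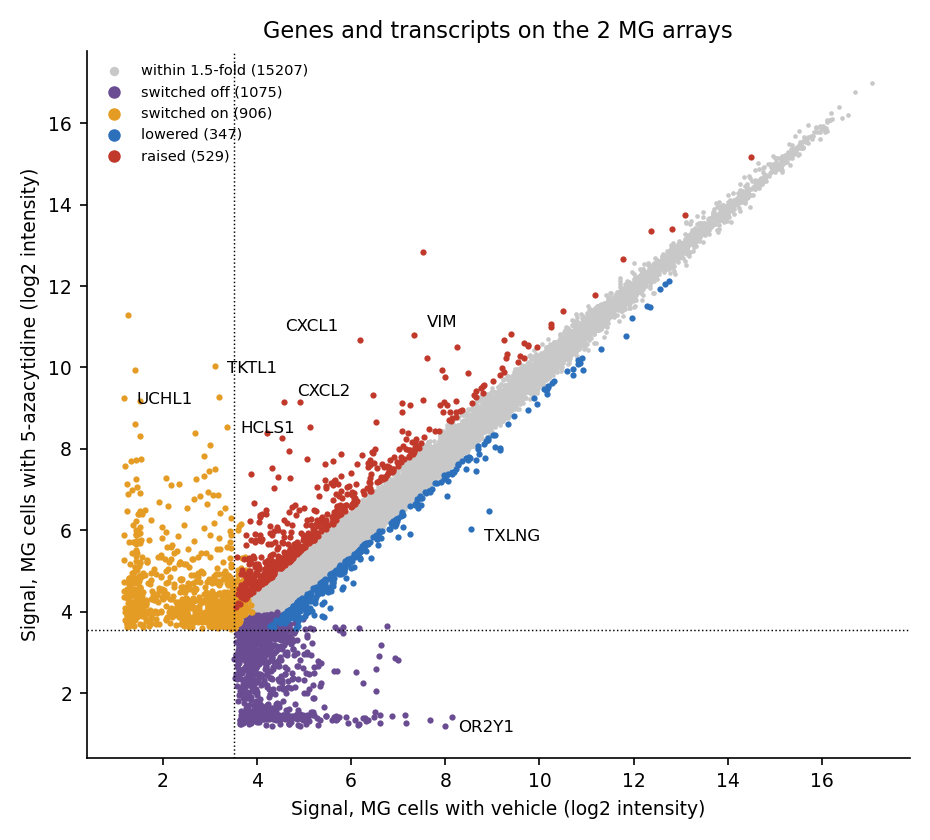
Each point is a gene or transcript detected on at least one MG array, with its log2 signal with vehicle on the horizontal and with 5-azacytidine on the vertical axis, coloured by class. Dotted lines mark the lowest detected signal of each array. Points far above the diagonal are more numerous than points far below it, with 33 expressed genes raised and 2 lowered past 4-fold.

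Measured against spot error, 510 raised genes had a log2 ratio above 2 times that error and 387 above 3 times, and among lowered genes 328 and 219 did so. Each value averages over the cells of a culture, so more cells expressing a gene and more RNA per cell cannot be told apart. Where several probes of a raised gene were detected on both arrays, all of them pointed upward in 45 of 49 genes, and all passed 1.5-fold in 16. For lowered genes the corresponding numbers were 24 and 7 of 26.

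The 15 genes with a symbol that were switched on furthest took their values from 1 probe each. RD3 alone of them has 2 probes, and its other probe was not detected on either MG array. TKTL1, a transketolase-like gene of the X chromosome, read 8.63 with vehicle and 1043 with 5-azacytidine in MG cells, at least 93.1-fold. In non-MG cells it went from 5.05 to 470, so both vehicle arrays were dark and both treated arrays bright. XAGE1A, a cancer-testis antigen, read 2.67 and 973 in MG cells (at least 86.8-fold) and 2.40 and 309 in non-MG cells. UCHL1, a neuronal ubiquitin hydrolase often methylated in colorectal cancer, read 2.28 and 612 in MG cells (at least 54.6-fold) and 2.01 and 378 in non-MG cells. Again neither vehicle array gave a detected signal. H1-1, a linker histone gene, read 6.46 and 335 in MG cells (at least 29.9-fold) and 3.49 and 143 in non-MG cells. PNMA5 reached 276 from 7.99 (at least 24.6-fold), MAGEA9 reached 191 from 2.30 (at least 17.03-fold), and ZFP42, a pluripotency factor gene also known as REX1, reached 162 from 7.37 (at least 14.4-fold), and each was also switched on in non-MG cells. TCF15, a mesodermal transcription factor gene, reached 155 from 4.23 (at least 13.9-fold). CCL20, a chemokine that attracts cells bearing CCR6, reached 154 from 6.50 (at least 13.7-fold), against 39.1 from 7.54 in non-MG cells. RD3, a photoreceptor gene, reached 183 from 8.62 (at least 16.3-fold) in MG cells and only 13.95 in treated non-MG cells.

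Of these 15, 10 were switched on in non-MG cells as well and 1 was raised there. ICAM2, an endothelial and leukocyte adhesion gene, is the one raised, from 17.9 to 142 in non-MG cells against 2.52 to 207 in MG cells (at least 18.5-fold). HCLS1 stands apart. This gene encodes an actin-binding protein of blood cells, and it read 10.4 with vehicle and 371 with 5-azacytidine in MG cells, at least 33.1-fold, but 277 and 359 in non-MG cells, a log2 ratio of 0.58. The 3 other arrays thus lay between 277 and 371 and the array of vehicle-treated MG cells alone was below detection. The remaining 3 were detected on the array of treated MG cells alone. LINC01559 read 212 there and between 2.34 and 2.69 elsewhere, MUCL1, a mucin-like gene, read 175 there and between 5.06 and 7.87 elsewhere, and SNORD127, a small nucleolar RNA, read 141 there and between 5.06 and 7.17 elsewhere. Of the 906 genes and transcripts switched on, 423 have no gene symbol in the annotation used. The furthest of these, listed under NM_021123, read 2.40 with vehicle and 2510 with 5-azacytidine in MG cells and 6.51 and 1668 in non-MG cells, above every gene with a symbol.

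**Figure D2:**
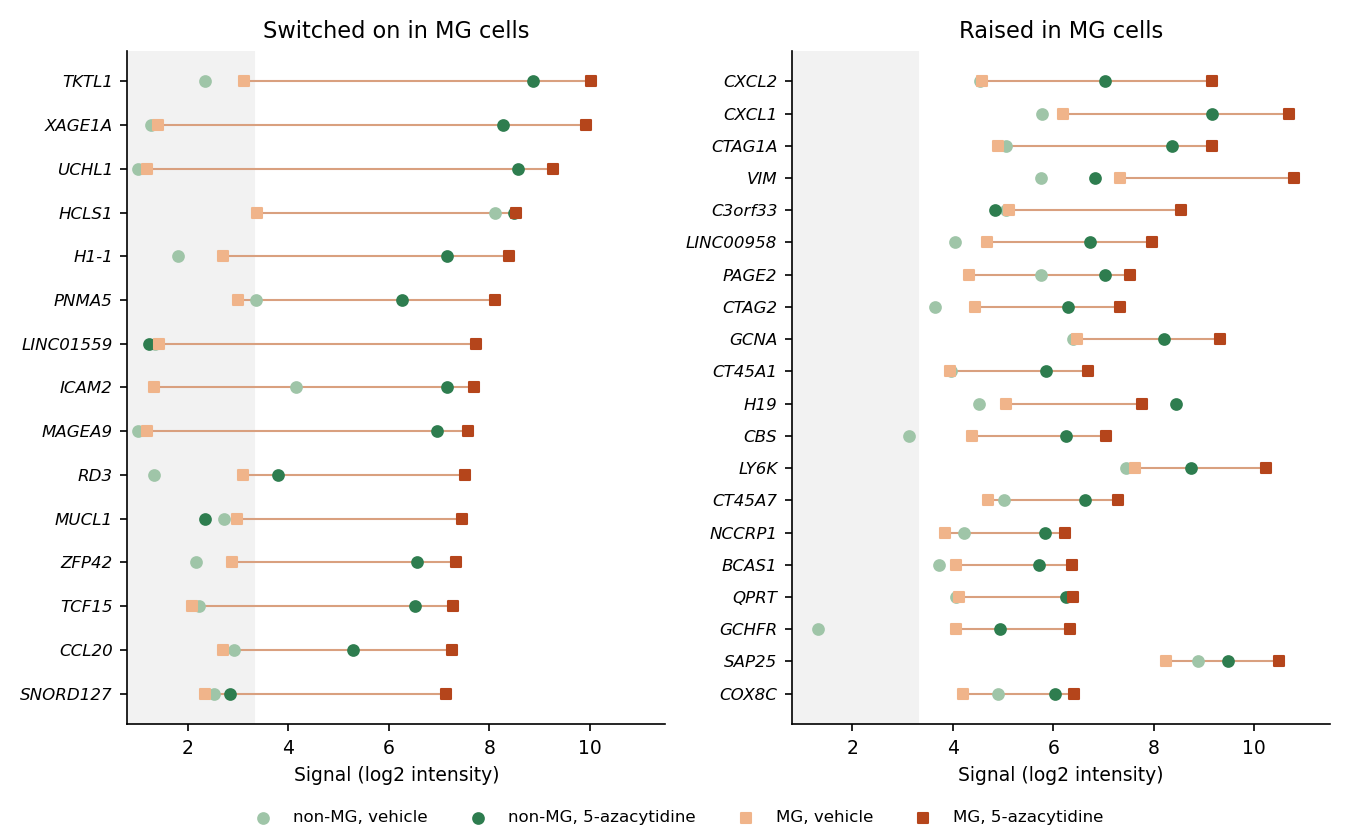
Log2 signal on the 4 arrays for the 15 genes switched on furthest (left) and the 20 expressed genes raised furthest (right) in MG cells, among genes with a symbol. Squares joined by a line are the MG arrays, circles the non-MG arrays, darker marks 5-azacytidine, and the grey band lies below the lowest detected signal of any array. HCLS1 is bright on 3 arrays and below its own array's limit with vehicle in MG cells, and LINC01559, MUCL1 and SNORD127 are bright on 1.

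Whether the drug brought up genes that MG cells had lost was read from the genes detected in vehicle-treated non-MG cells and not in vehicle-treated MG cells. There were 988 such genes and transcripts, and 226 of them (22.9%) were switched on, compared with 680 of the 22755 (2.99%) that neither vehicle array detected. Most of these genes lay at the limit of detection, with a median signal of 13.8 in non-MG cells. The vehicle-treated MG array enters both the choice of these genes and the switch, so a low reading there counts on both sides. Switched on by at least 2-fold were 35 of the 988 (3.54%) and 248 of the 22755 (1.09%). Only 15 of the 988 had a mean log2 signal of at least 5 in non-MG cells, and 6 of these 15 were switched on, 4 by at least 2-fold. Of the 9 with a symbol, HCLS1 is described above. C5orf58 read 10.7 and 28.2 in MG cells (log2 bound 1.33), LRG1 11.3 and 19.8 (0.82) and PLIN5, a lipid droplet gene, 10.5 and 17.9 (0.68), while all 3 read between 27.6 and 75.9 in non-MG cells. CIB4, PRR15L, DIRAS3, SNORD72 and FRMD6-AS1 stayed below detection on both MG arrays. DIRAS3, an imprinted growth suppressor gene, read 3.65 and 4.51 in MG cells against 45.9 and 29.7 in non-MG cells. These 9 were singled out after their values had been seen.

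The 20 expressed genes with a symbol that were raised furthest were led by the chemokine genes CXCL2 and CXCL1, which attract neutrophils through CXCR2. CXCL2 went from 24.04 to 571 in MG cells, a log2 ratio of 4.60 ± 0.15, and from 23.4 to 130 in non-MG cells, a ratio of 2.69. CXCL1 went from 72.9 to 1647 in MG cells (4.53 ± 0.10) and from 54.9 to 573 in non-MG cells (3.60). For both genes the vehicle signals of the 2 cell types lay closer together than the treated signals. VIM, the intermediate filament gene of mesenchymal cells, went from 162 to 1771 in MG cells (3.49 ± 0.10) and from 54.3 to 114 in non-MG cells (1.28). Of the 20, 5 were cancer-testis genes of the X chromosome, with CTAG1A from 30.02 to 572 (4.29 ± 0.21), PAGE2 from 19.98 to 185 (3.25 ± 0.15), CTAG2 from 21.8 to 160 (2.91 ± 0.22), CT45A1 from 15.4 to 103 (2.77 ± 0.30) and CT45A7 from 25.97 to 156 (2.62 ± 0.22). Members of these families are nearly identical in sequence, so a probe may read its paralogues too. GCNA, a germ cell nuclear protein gene on the X chromosome, went from 88.6 to 639 (2.88 ± 0.11), and LY6K, a testis-expressed surface protein gene, from 196 to 1204 (2.65 ± 0.10).

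Metabolic and other genes completed the 20. CBS, the first enzyme of transsulfuration, went from 20.7 to 133 (2.71 ± 0.22) and was switched on in non-MG cells, from 8.72 to 75.8. QPRT, an enzyme of NAD synthesis from quinolinate, went from 17.3 to 84.3 (2.32 ± 0.22), with nearly the same ratio in non-MG cells (2.40). GCHFR, the feedback regulator of GTP cyclohydrolase, went from 16.7 to 80.1 (2.29 ± 0.22), and SAP25, a Sin3 complex gene, from 303 to 1448 (2.29 ± 0.09). LINC00958, NCCRP1, BCAS1 and COX8C had log2 ratios between 2.24 and 3.31 and were raised in non-MG cells too. H19, the imprinted long noncoding RNA, was raised less in MG cells, from 33.4 to 216 (2.73 ± 0.14), than in non-MG cells, from 23.0 to 349 (4.13). C3orf33 alone of the 20 was within 1.5-fold in non-MG cells. It read 34.8 and 371 in MG cells (3.45 ± 0.16) and 33.2 and 28.8 in non-MG cells, so 1 of 4 arrays was high. The other 19 were raised in non-MG cells (16 genes) or switched on there (3 genes). Past all of them lay a transcript listed under NM_001098411, without a symbol in the annotation used, at 185 and 7330 in MG cells (5.34) and 295 and 6047 in non-MG cells.

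The genes lowered or switched off furthest were mostly within 1.5-fold or silent in non-MG cells. TXLNG went from 374 to 65.6 (-2.48 ± 0.12) and SNORA70F from 488 to 88.6 (-2.43 ± 0.12), by 1 probe each, and both were within 1.5-fold in non-MG cells. In TXLNG the treated MG array was the low one of 4, since the non-MG arrays read 272 and 217. In SNORA70F the vehicle MG array was the high one of 4, since the non-MG arrays read 96.2 and 69.1. After these the falls were small. ZNF490 had a log2 ratio of -1.22 ± 0.25, SEMA3D, an axon guidance ligand gene, -1.18 ± 0.25, EHBP1, an adaptor of actin and endocytosis whose 2 probes gave -1.82 and -0.49, -1.16 ± 0.09, LMBRD1, a lysosomal cobalamin gene, -1.10 ± 0.10, LRP2, the megalin gene, -1.07 ± 0.16, and SUDS3, a Sin3 complex gene, -1.04 ± 0.11. LEMD1, itself a testis-expressed gene, went from 573 to 252 (-1.15 ± 0.10) and was lowered in non-MG cells too (-0.90), as was the pseudogene LAMB2P1 (-1.12 ± 0.16 and -0.68). NR2F1, a nuclear receptor gene and the brightest of the 12 lowered furthest, went from 3662 to 1753 (-1.03 ± 0.08), against 5714 and 4138 in non-MG cells. The 8 genes with a symbol that were switched off furthest were OR2Y1, OR10A7, ZNF660, LINC01574, ERVK13-1, SYT4, LINC01094 and C5orf46, with log2 bounds between 2.90 and 4.41. Each was detected on the vehicle MG array and on no other of the 4 by the 1 probe that carried the value. LINC01574 and ERVK13-1 have 3 probes each and LINC01094 has 6, and their other probes were not detected on either MG array. OR2Y1, an olfactory receptor gene, read 256 there and between 2.31 and 3.73 elsewhere.

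Set against the non-MG arrays as a whole, larger upward changes were shared more often. Of the 906 switched on in MG cells 24.9% were raised or switched on in non-MG cells, of the 283 switched on at least 2-fold 40.3%, and of the 97 switched on at least 4-fold 48.5%. For expressed genes 29.1% of the 529 raised and 50.3% of the 165 raised past 2-fold came up in non-MG cells. A gene can go down in non-MG cells only if it was detected there with vehicle, so downward shares are given over those genes. Of the lowered genes 52 of 333 (15.6%) went down in non-MG cells, and of those lowered past 2-fold 5 of 30 (16.7%). Of the genes switched off 165 of 469 (35.2%) went down, of those switched off at least 2-fold 11 of 30 (36.7%), and of those switched off at least 4-fold 1 of 3, since 38 of these 42 were silent on both non-MG arrays. For scale, among genes expressed on both MG arrays 2.52% came up in non-MG cells. Of the 15837 of these detected there with vehicle, 390 (2.46%) went down. Of the 22837 silent on both MG arrays 1.63% came up in non-MG cells. Of the 762 of these detected there with vehicle, 487 (63.9%) went down, 469 of them by crossing the detection limit. The vehicle-treated non-MG array enters both the choice of these 762 and the fall. A high reading there counts on both sides, so this share is no yardstick for genes switched off. The genes switched on in both cell types numbered 189, which is 20.9% of those of MG cells and 26% of the 728 of non-MG cells, and the genes raised in both numbered 126, which is 23.8% and 36.4% of the 346 in non-MG cells.

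**Figure D3:**
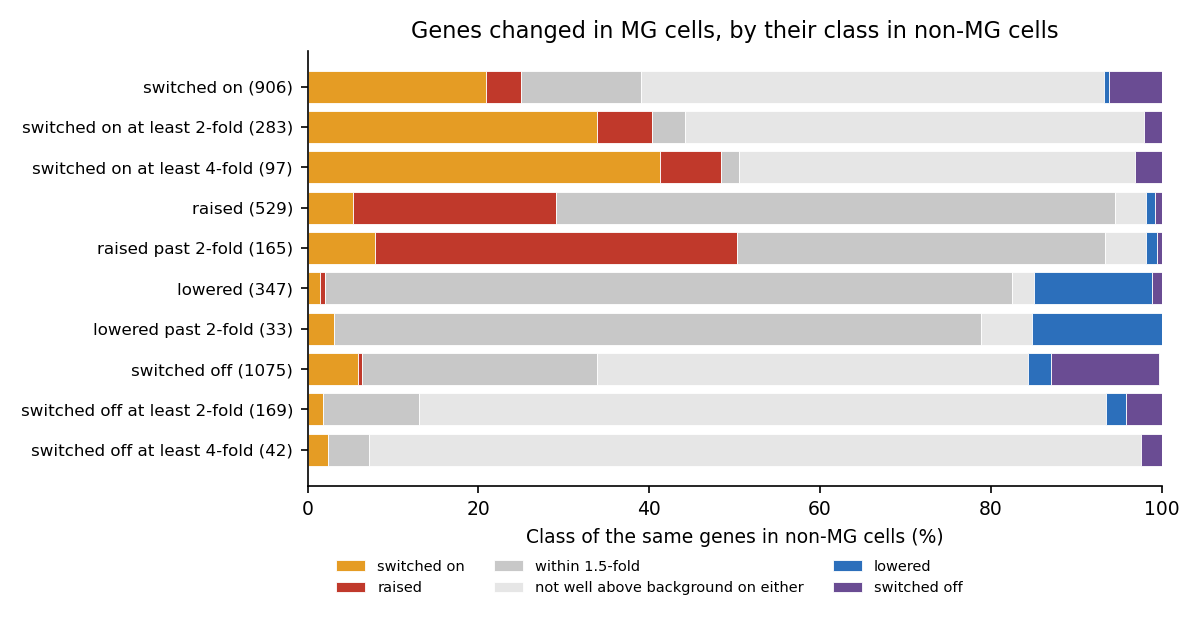
Bars split each class of genes changed in MG cells, named at left with its number, by the class of the same genes in non-MG cells, in percent. The share switched on or raised in non-MG cells grows from 24.9% to 48.5% with the size of a switch in MG cells, while 38 of the 42 genes switched off at least 4-fold were silent on both non-MG arrays.

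Gene lists were then read as counts. Among genes with a symbol, 417 of 12971 expressed genes were raised (3.21%) and 212 were lowered (1.63%), 483 of 8145 undetected genes were switched on (5.93%), 164 of them at least 2-fold (2.01%), and 488 of 13466 detected genes were switched off (3.62%), 76 at least 2-fold (0.564%). The median log2 ratio of the expressed ones was -0.01. Cancer-testis antigens of the X chromosome had shares above these, and no share of a list was tested. Of 107 listed, 69 were found on the array by symbol. Members without a matching symbol, several GAGE genes among them, are not counted. Of the 69, 16 were expressed with a median log2 ratio of 0.52, and 8 of these were raised and none lowered. Of 52 not detected with vehicle, 17 were switched on, 13 of them at least 2-fold, and 35 stayed silent. One, FATE1, was switched off, from 17.9 to 2.59, and was silent in non-MG cells. MAGEA4, expressed beforehand, went from 88.5 to 239 (1.47 ± 0.12). FMR1NB reached 139 from 4.54 (at least 12.4-fold), CT45A5 116 from 9.02 (at least 10.4-fold), VCX2 73.0 from 8.54 (at least 6.52-fold), NXF2, a paralogue of an mRNA export factor, 45.3 from 4.96 (at least 4.04-fold), and MAGEA8 43.9 from 2.76 (at least 3.92-fold). VCX2 stayed silent in non-MG cells, where its probe read 5.51 and 7.003, and so did MAGEB1, PASD1 and PAGE2B. In non-MG cells 14 of the list were switched on and 6 raised.

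Other germline genes had shares above those of all genes both upward and downward. Of 64 genes of meiosis, the piRNA pathway and germ cells, 8 of 43 undetected members were switched on (18.6%) and 2 of 17 expressed members raised (11.8%). Of the same 17, 1 was lowered (5.88%, against 1.63% of all expressed genes with a symbol). Beside these 17, 4 were switched off, against 3.62% of all detected genes with a symbol. DPPA2, a pluripotency gene, reached 96.6 from 4.34 (at least 8.62-fold), LIN28B, the let-7 inhibitor gene, 70.5 from 2.59 (at least 6.29-fold), SOHLH1, a germ cell transcription factor gene, 67.9 from 2.89 (at least 6.06-fold), and TDRD12, of the piRNA pathway, 39.7 from 6.29 (at least 3.54-fold). These 4 were switched on in non-MG cells as well. SYCP3, of the synaptonemal complex, reached 29.8 from 6.34 (at least 2.66-fold), while SYCE2, of the same structure, was lowered from 31.8 to 18.3 (-0.76 ± 0.29) and lowered in non-MG cells (-0.81). PIWIL4, TEX14, MSH4 and ADAD1 were switched off from signals of 14.97 to 16.3, just above the limit. On the X chromosome lay 40 of the 483 genes with a symbol that were switched on (8.28%), 22 of the 164 switched on at least 2-fold (13.4%) and 23 of the 417 raised (5.52%), against 347 of the 7662 that stayed silent (4.53%). The cancer-testis list supplied 17, 13 and 8 of these, and without it the shares were 4.94%, 5.96% and 3.67%.

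Chemokines, cytokines and NF-kB targets had upward shares above those of all genes as well. NF-kB is a family of transcription factors that drive inflammatory genes. Of 44 on the array, 8 of 20 expressed members were raised and 11 of 24 undetected members were switched on, 9 at least 2-fold, and none went down, with a median log2 ratio of 0.32 for the expressed ones. Among ligands of CXCR2, besides CXCL1 and CXCL2, CXCL3 reached 118 from 8.44 (at least 10.5-fold), CXCL5 46.8 from 5.84 (at least 4.18-fold) and CXCL8, the interleukin 8 gene, 38.6 from 2.27 (at least 3.45-fold). PPBP and CXCL6 stayed silent. Among cytokines CSF2, the GM-CSF gene, reached 53.5 from 6.40 (at least 4.77-fold), IL32 39.6 from 6.205 (at least 3.54-fold) and TNF 22.4 from 4.09 (at least 2-fold), whereas IL1A, IL1B and IL6 stayed silent. The acute phase genes SAA1 and SAA2 reached 24.6 and 29.1 from below detection, and LCN2, an iron-siderophore binding protein gene, went from 238 to 540 (1.21 ± 0.11). BIRC3, an inhibitor of apoptosis and NF-kB target, went from 244 to 976 (2.03 ± 0.11). Feedback inhibitors moved less, with TNFAIP3, the A20 gene, from 25.5 to 51.1 (1.04 ± 0.24) and NFKBIA, within 1.5-fold, from 2087 to 2930 (0.52 ± 0.03). Subunit genes of NF-kB itself had log2 ratios between 0.05 for RELA and 0.38 for RELB. In non-MG cells 7 members were raised and 4 switched on, and of 20 members expressed on all 4 arrays 19 had a larger log2 ratio in MG than in non-MG cells, against 53.6% of the 15709 genes and transcripts expressed on all 4. LCN2 is the exception, with 2.30 in non-MG cells. Larger ratios in MG cells were not particular to this list, since they were found in 32 of 37 interferon-stimulated genes and 22 of 29 p53 targets.

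**Figure D4:**
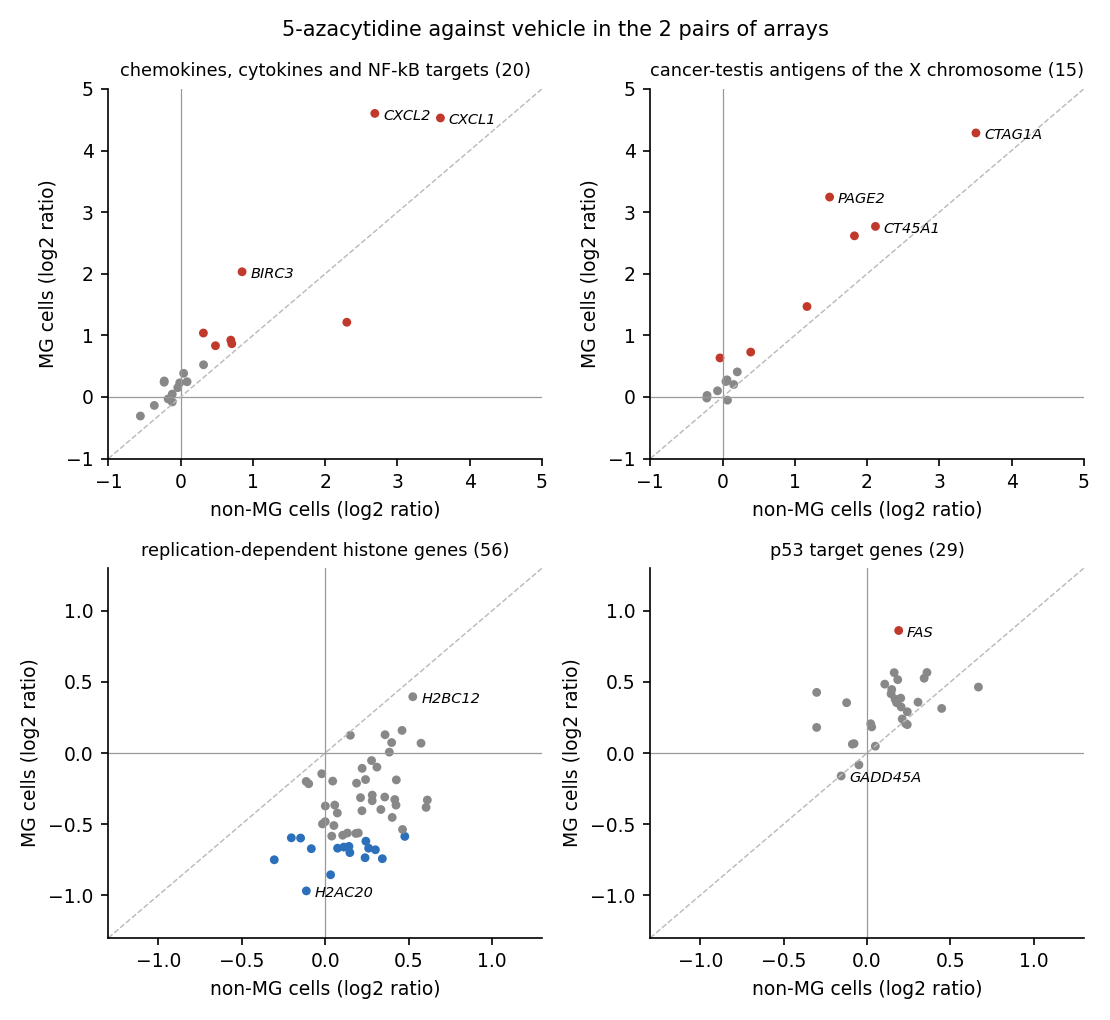
Log2 ratio of 5-azacytidine over vehicle in MG cells (vertical) against non-MG cells (horizontal) for members of 4 lists expressed on all 4 arrays, 1 point a gene, red raised, blue lowered and grey within 1.5-fold in MG cells. The dashed line marks equal ratios. Chemokine and cancer-testis genes lie mostly above it, and all 56 histone genes lie below it.

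Expressed interferon-stimulated and antigen presentation genes passed 1.5-fold about as often as genes at large. Ratios above 0 were found in 28 of 38 and 15 of 21 of them, against 47.3% of all expressed genes with a symbol. Of 54 genes of nucleic acid sensing and the interferon response, 38 were expressed with a median log2 ratio of 0.09, 2 were raised, 36 stayed within 1.5-fold and none was lowered. IRF7, a master regulator of type I interferon genes, went from 356 to 933 in MG cells (1.42 ± 0.10) and from 738 to 844 in non-MG cells (0.41), so vehicle-treated MG cells were the low array of 4. BST2, tetherin, went from 57.0 to 90.1 (0.70 ± 0.12). OAS1 crossed the detection limit upward by at least 1.16-fold and HERC6 downward by at least 1.55-fold. ISG15, IFIT1 and MX1 had log2 ratios of 0.09, -0.07 and 0.04, and IFNB1, IFNL1 and IFNL3 stayed silent. Among 27 antigen presentation genes, HLA-DPA1 was raised (0.72 ± 0.15). NLRC5, the class I transactivator and 1 of 6 undetected members, was switched on by at least 1.36-fold. Of 8 endogenous retroviral genes on the array, 5 were silent, ERVMER34-1 was within 1.5-fold and ERV3-1 and ERVK13-1 were switched off. These probes read single loci, and repeat families were not measured.

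Histone genes had the largest share of lowered members of all lists. Replication-dependent histone genes supply chromatin during S phase, and their transcripts typically end in a stem-loop in place of a poly(A) tail. Of 66 on the array, 58 were expressed with a median log2 ratio of -0.40, and 17 of these were lowered (29.3%) while 51 of 58 had a ratio below 0. H2AC20 went from 1952 to 974 in MG cells (-0.97 ± 0.09) and from 1231 to 984 in non-MG cells (-0.11). H4C11 went from 1666 to 899 (-0.86 ± 0.09) against 1098 and 970, and H2AC12 from 4978 to 2919 (-0.74 ± 0.08) against 2110 and 2152. In each of these the vehicle-treated MG array was the highest of 4. These signals are before scaling, and the non-MG arrays had lower 75th percentiles, so distances to the non-MG arrays were not compared. None of the list was lowered in non-MG cells, where the median was 0.22, and all 56 members expressed on 4 arrays had a smaller ratio in MG than in non-MG cells. Genes of DNA replication and nucleotide synthesis leaned the same way by smaller amounts. All 44 stayed within 1.5-fold in MG cells, with a median of -0.09 against 0.07 in non-MG cells, and 34 of the 44 had a smaller ratio in MG than in non-MG cells. All 47 mitosis genes stayed within 1.5-fold too, with a median of -0.07. Of 8 histone genes not detected with vehicle, 4 were switched on (50%), against 5.93% of all undetected genes with a symbol. They were H1-1, described above, H2AC1, at 31.1 from 6.77, H3C11, at 19.8 from 11.2, and H1-6, at 14.02 from 2.52. H2AC1 and H1-6 are testis-expressed variants. Histone genes are numerous and alike, so probes may read neighbours in the family.

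**Figure D5:**
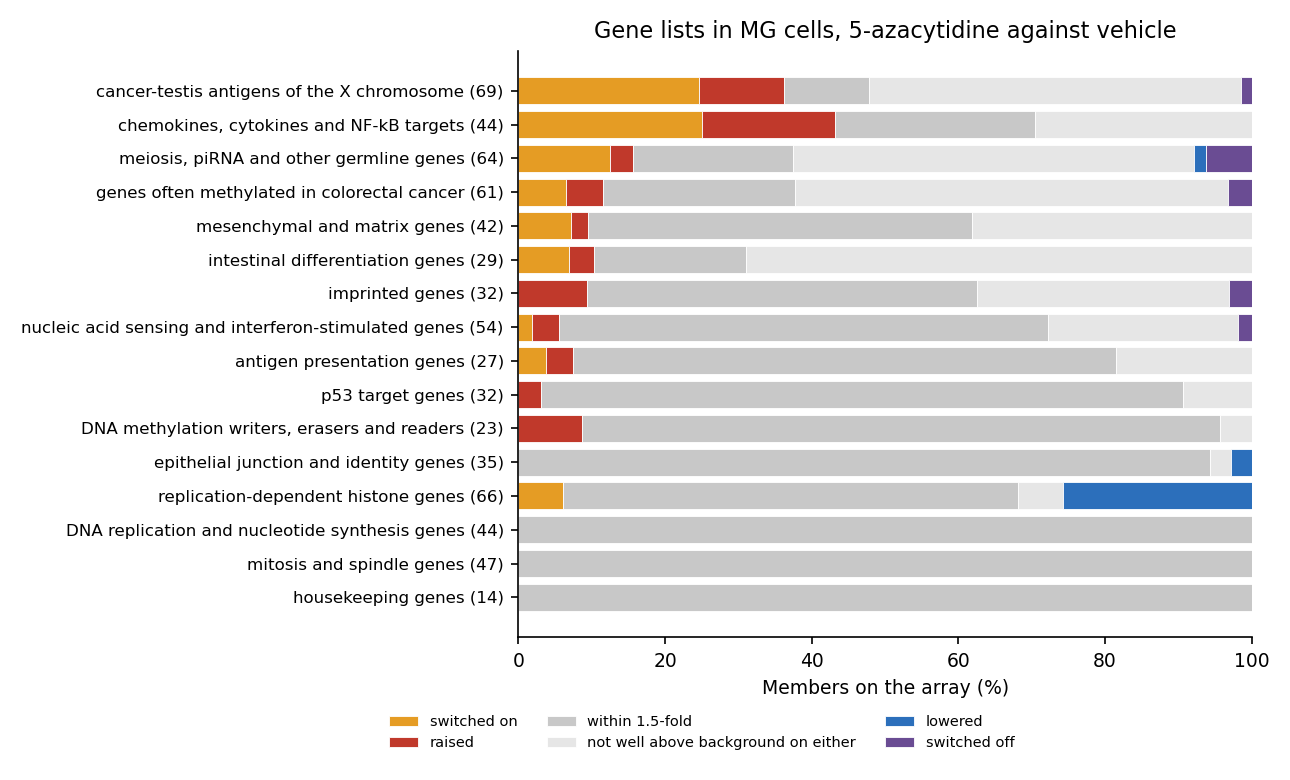
Stacked bars give the percent of the members of each list found on the array by symbol (number in brackets) that fell in each class in MG cells. Upward classes take the largest share among chemokine and cancer-testis genes, lowered genes are concentrated in the histone list, and replication, mitosis and housekeeping genes are within 1.5-fold throughout.

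Targets of p53 passed 1.5-fold about as often as genes at large. Of 32 targets 29 were expressed, with a median log2 ratio of 0.35, and 27 of these 29 had a ratio above 0, against 47.3% of all expressed genes with a symbol. Only FAS, a death receptor gene, passed 1.5-fold (1 of 29, 3.45%), from 108 to 192 (0.86 ± 0.06), with probes at 0.43 and 1.29. CDKN1A, the p21 gene, went from 288 to 417 (0.57 ± 0.10) and MDM2 from 67.7 to 92.6 (0.48 ± 0.08), both under 1.5-fold. In non-MG cells the median was 0.17. Genes of the drug's own pathway were mostly within 1.5-fold in MG cells. The methyltransferase genes DNMT1, DNMT3A and DNMT3B had log2 ratios between -0.01 and 0.07. Raised were TDG, a glycosylase that removes oxidized methylcytosine, from 869 to 1494 (0.81 ± 0.09), and ZBTB33, the methyl-CG reader Kaiso, from 68.6 to 141 (1.07 ± 0.12), while in non-MG cells their ratios were 0.21 and -0.36. None of 19 expressed genes of nucleoside uptake and activation passed 1.5-fold, with UCK2, the kinase that activates 5-azacytidine, at 0.10 and SLC29A1, a nucleoside transporter, at 0.20. SLC28A2, another transporter gene, was switched off from 39.2 to 2.33 by at least 3.24-fold and was silent in non-MG cells.

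Genes known to be methylated in colorectal cancer had upward shares above those of all genes, from few members. Of 61 on the array, 4 of 40 undetected with vehicle were switched on (10%), 3 of them at least 2-fold, and 3 of 19 expressed ones were raised (15.8%). The other 36 stayed silent, among them SFRP2, WIF1, HIC1, TIMP3, RARB and CHFR. Besides UCHL1, TFPI2, a serine protease inhibitor gene, reached 52.3 from 2.43 (at least 4.66-fold) and was silent in non-MG cells, CRABP1, a retinoic acid binding protein gene, reached 36.0 from 5.48 (at least 3.18-fold), and SFRP1, a secreted Wnt antagonist, reached 15.6 from 3.001 (at least 1.40-fold). IGFBP3 (0.94 ± 0.06), THBD (1.02 ± 0.24) and SOCS1 (0.84 ± 0.18) were raised, and none of the 19 was lowered. Beside these 19, 2 were switched off, against 3.62% of all detected genes with a symbol. They were SST (log2 bound -2.10) and ESR1 (-0.50). CDKN2A had a log2 ratio of -0.04. Imprinted genes besides H19 included MEG3 (0.89 ± 0.17, with probes at 0.06 and 1.73) and NNAT (0.72 ± 0.24), both raised alike in non-MG cells, while 17 of 20 expressed members were within 1.5-fold and IGF2, the neighbour of H19, had a ratio of 0.27.

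Epithelial and mesenchymal identity moved little apart from VIM. Of 34 expressed junction and epithelial genes 33 were within 1.5-fold, with CDH1, the E-cadherin gene, at -0.03 ± 0.03 and a median of -0.10, and TJP3 was lowered in both cell types (-0.65 ± 0.13 and -0.62). Of 42 mesenchymal and matrix genes, VIM was the only one raised, 22 were within 1.5-fold, 16 stayed silent, including FN1, ZEB2 and SNAI2, and CDH2, TGFBI and THY1 were switched on from below 10 to between 15.9 and 17.3. Among proteases and motility genes MMP1, interstitial collagenase, went from 19.3 to 37.4 (0.99 ± 0.08), with RHOB (0.60 ± 0.07) and MMP25 (0.65 ± 0.35) also raised and 24 of 27 expressed members within 1.5-fold. Of 7 expressed intestinal differentiation genes 1 was raised, KRT20, a keratin of mature colonocytes, from 19.4 to 68.4 (1.85 ± 0.22). Of 22 undetected ones 2 were switched on (9.09%), against 5.93% of all undetected genes with a symbol. These were TFF2 and TFF3, mucosal trefoil peptides, at least 3.50-fold and 2.87-fold. KRT20, TFF2 and TFF3 were up in non-MG cells too, and 20 of the 29 on the array were silent in MG cells. Of 21 expressed genes of the unfolded protein and amino acid response 3 were raised. NUPR1 went from 50.6 to 150 (1.60 ± 0.17), SLC7A5, an amino acid transporter gene, from 673 to 1813 (1.46 ± 0.09) and ATF5 from 57.0 to 97.5 (0.81 ± 0.06). MT2A, a metallothionein gene, went from 22972 to 36533 (0.70 ± 0.08), and of the 11 metallothionein genes on the array MT1G was switched on, 7 more were within 1.5-fold and 2 stayed silent. In the BCL2 and death list BCL2 was raised (0.65 ± 0.17) with probes that disagreed in sign, at -0.29 and 1.60, and BCL2L10 and APAF1 were switched off by at least 1.87-fold and 1.26-fold. In the hypoxia list PDK1 was raised (0.69 ± 0.12) and ANKRD37 lowered (-0.81 ± 0.09), and of 25 sterol and fatty acid synthesis genes SC5D alone was lowered (-0.82 ± 0.25). All 14 housekeeping genes were within 1.5-fold (median 0.01, or -0.02 with arrays centred on their medians).

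Zinc finger genes gave shares near those of all genes. Of 458 genes named ZNF with a number, 10 of 301 expressed ones were raised (3.32%), 5 lowered (1.66%), 11 of 146 undetected ones switched on (7.53%), and 10 switched off. ZNF709 went from 16.5 to 73.8 (2.19 ± 0.22) and ZNF727 from 153 to 542 (1.86 ± 0.11) in MG cells, while in non-MG cells they read 56.4 and 46.8, and 455 and 359. In both the vehicle-treated MG array was the lowest of 4. ZNF134 was raised in both cell types (1.29 ± 0.24 and 1.12). ZNF624 was lowered (-1.27 ± 0.36).

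Markers were checked for the labelled cell type and for others. Of 10 colon carcinoma epithelium markers 8 were expressed and within 1.5-fold, KRT19 at 59999 and 59825 and EPCAM at 9915 and 8288, and VIL1 and LGALS4 were not detected on either MG array. Some genes that mark other cells came up at low signals. CD3D (21.8 and 39.0), CD8A (18.5 and 29.1), CD14 (13.5 and 26.3), CD68 (51.4 and 88.8) and VWF (19.8 and 31.4) were raised, and CSF1R (10.7 and 40.2) was switched on. Of the 3 expressed T and NK cell markers, the 1 not raised had a log2 ratio of -0.13. The summed signal of the 5 myeloid markers on the array was 81.8 with vehicle and 162 with 5-azacytidine, that of the 8 T and NK cell markers 537 and 513, that of the 6 fibroblast markers 74.2 and 79.9 that of the 5 endothelial markers 31.7 and 46.5 and that of the 3 erythroid markers 21.4 and 24.5. PTPRC, the common leukocyte gene, and CD3E, CD3G, CD2, MS4A1, PECAM1, CDH5, COL1A2 and COL3A1 were not detected on either MG array. CD3D and CD14 were raised in non-MG cells as well and CSF1R too, from 20.7 to 44.9. Any part of such cells in the results was not tested.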

How the data were processed

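One-colour Agilent arrays of 4 HCT116 samples, 1 array a condition, lay on 1 slide with 1 scan time. The authors deposited each array's scanner output, in which Agilent Feature Extraction 11.5.1.1 had subtracted background from spot intensity, and a table of log2 values made by the authors with GeneSpring and centred per probe. Control and outlier-flagged spots were dropped. From the intensities, log2 signals minus each array's 75th percentile were computed, spots were averaged per probe, and probes per gene through RefSeq accessions (30000 of 50599 probes, 21611 symbols). A probe was detected where over 0.5 of its spots were well above background. The genes named are the 15 switched on, 8 switched off, 20 raised and 12 lowered furthest among those with a symbol, for expressed genes at a mean log2 intensity of at least 5, and members of the gene lists. Members and lists were chosen with earlier results of these data known. Spot error comes from 902 probes spotted 10 times. With 1 array a condition no test was run. Alternatives were 3 other scalings or background corrections, other detection and fold rules, other probe summaries and the authors' own table. Python 3.11.15, pandas 2.3.3, R 4.3.3 and limma 3.58.1 were used, and the classification was tested on simulated data. A few list members and the summed B cell markers are not reported here.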

Additional observations from a re-analysis of the deposited data

Results flagged for a closer look

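In all, 147 of the 40909 genes and transcripts went opposite ways in the 2 pairs of arrays, 70 of them with a symbol. The difference between the pairs was not tested in any of them. In MG cells most of the 147 were crossings of the detection limit, 61 of the 906 switched on (6.73%) and 69 of the 1075 switched off (6.42%). The others were 10 of the 529 raised (1.89%) and 7 of the 347 lowered (2.02%). Given here are the 4 that belong to the gene lists or are named above. H1-5, a linker histone gene, was lowered in MG cells, from 47.5 to 22.7 (log2 ratio -1.03), and switched on in non-MG cells, from 2.25 to 10.7 (log2 bound 0.30). ZNF783 was lowered in MG cells, from 45.5 to 22.4 (-0.99), and switched on in non-MG cells, from 9.50 to 19.01 (1.13). NLRC5 crossed the detection limit upward in MG cells, from 10.7 to 15.2 (0.44), and downward in non-MG cells, from 12.7 to 10.3 (-0.09). ZNF527 crossed it downward in MG cells, from 14.5 to 9.51 (-0.26), and upward in non-MG cells, from 10.4 to 13.9 (0.63).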

How the results depend on the processing

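No paired analysis was possible because each condition has 1 array, and for the same reason no array could be left out. Of 41 recomputed counts 29 stayed within 1.5 times the reported one and 12 did not. Among the 29, the authors' own table gave the same 529 raised and 347 lowered. It was made from the same arrays and read with the same detection calls, so it is no separate check. With the scanner's positive-and-significant flag as the rule for detection, 2916 genes were switched on, 3367 switched off, 2398 raised and 2071 lowered. With normexp background correction at an offset of 50, which compresses ratios of dim spots by construction, 144 were raised, 48 lowered and 43 switched on at least 2-fold. A threshold of 2-fold gave 165 raised and 33 lowered, a mean log2 intensity of at least 5 gave 328 and 212, and genes with a symbol alone gave 212 lowered. Across 3 scalings, 517 of 639 values of 213 named genes stayed on the same side of 1.5-fold. Another 120 fell below 1.5-fold and 1, the bound of FATE1, passed it. The bound of ZNF527 reversed in sign, from -0.26 to 0.023 with normexp. Calls of switched on or off rest on detection, which the scalings left unchanged. List medians changed sign 7 times, in 5 lists with medians of at most 0.03 in size. Of the histone genes called lowered, 7 fell short under normexp. The median of the histone list ranged from -0.44 to -0.36, that of the chemokine list from 0.23 to 0.33, that of the cancer-testis list from 0.31 to 0.50 and that of the p53 list from 0.21 to 0.35. Centring on the median shifted all genes by -0.04. Signals near the detection limit carry the largest spot error, and the number of arrays limits every value.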

Other observations

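Transcripts without a symbol in the annotation used were more frequent among genes that went down. They made up 587 of the 1075 switched off (54.6%), against 21.6% of all detected with vehicle, and 135 of the 347 lowered (38.9%), against 19.3% of all expressed. Upward they made up 423 of the 906 switched on (46.7%), against 65.7% of all undetected, and 112 of the 529 raised (21.2%). By gene type, small nucleolar RNAs made up 6.63% of lowered genes and transcripts and 1% of those within 1.5-fold.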
